A study of Homo sapiens with 16 samples.

Results

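EGR1, EGR2, EGR3, ETV4, ETV5, DUSP6, SPRY4, FOSL1, VGF and CCL20 are genes that cells switch on in response to growth factors. The 10 genes were followed through RNA counts of 20802 gene targets in HEK293 cells with wild-type or optimized interferon receptors. They were selected on these libraries, since the EGR genes were highest in optimized cells given IFNL3, and every value that involves the optimized IFNL3 libraries is therefore a description without a test. All 10 genes have a target, 9 had reads, and those 9 were among the 12704 genes that passed the filter on low counts. SPRY4 had no read in any of the 16 libraries and was not tested, and CCL20 passed the filter only through the optimized IFNL3 libraries.

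HEK293 is a line from human embryonic kidney, grown here in Free-style medium with antibiotics. The labels name the genotypes only as wild-type or optimized receptors, and the series concerns the geometry in which interferon receptors hold their paired JAK kinases. For both genotypes there were untreated cells and cells given a ligand at 100 nM. IFNw is interferon omega, a type I interferon, IFNL3 is the type III interferon lambda 3, and H11 is a high-affinity form of IFNL3. The treatment text gives an exposure of 15 min and the sample labels a time of 24 hr, and the sources used here do not say how these relate. The 8 groups were thus untreated, IFNw, H11 and IFNL3 in wild-type cells and the same 4 in optimized cells, each with 2 libraries labelled as biological replicates. The labels do not say whether replicates came from separate cultures, so p-values measure the spread between these libraries only, which may be technical. No mock-treated group was used here, and untreated cells served as controls.

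Growth factors bind receptor tyrosine kinases, which switch on RAS and then the kinase cascade RAF, MEK and ERK. Within minutes ERK leads to transcription of immediate early genes such as EGR1, and later of the ETS factors ETV4 and ETV5 and of DUSP and Sprouty genes, whose products restrain the cascade. Interferons bind other receptors, which act mainly through JAK kinases and STAT factors.

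Libraries held 5331203 to 9822088 reads, and levels are given as CPM (reads scaled to a common library total) with TMM scaling, ± SD where n = 2. The TMM factors differed by group: 0.80 to 0.84 in IFNw and optimized H11, and 1.26 to 1.28 in wild-type H11 and IFNL3. With H11, for example, EGR3 had 37 optimized and 38 wild-type reads but 2.46 and 1.61 CPM. No alternative left out such scaling, and its part in the differences was not tested. Targets are amplicons of unknown length, so levels are compared between groups and not between genes. Of 6 marker genes of HEK293 cells (PAX2, VIM, NEFM, INA, KRT8 and KRT18), 5 averaged over 1 CPM, and their summed level was 374 to 613 CPM. Summed markers of blood cells (0 to 0.78 CPM, LYZ at 0) and hepatocytes (0 to 0.54 CPM, ALB, TTR and SERPINA1 at 0) were near 0. Those of fibroblasts summed to 16.4 to 32.5 CPM, with 2 of 6 averaging over 1 CPM and COL3A1 and LUM at 0. Those of neurons summed to 3.65 to 12.3 CPM, with 3 of 6 averaging over 1 CPM and RBFOX3 at 0. All 9 interferon-stimulated control genes rose with each ligand that was tested against untreated cells. A trend of level with transcript length separated the groups: Spearman's rho across 11490 genes was -0.44 to -0.41 in the 6 libraries of IFNw and optimized H11, 0.029 to 0.16 in the 6 of untreated cells and optimized IFNL3, and 0.38 to 0.42 in the 4 of wild-type H11 and IFNL3. This trend follows the groups, so its part in a difference between them cannot be told apart by group alone. For the 9 tested genes, values with the trend fitted out are given below where they change a call. For the other genes named below such values were not examined. In these bulk libraries fewer expressing cells and less RNA per cell cannot be told apart.

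The RefSeq table of sequences before gene starts (GRCh38.p14) held 6 of the 10 genes, and the 250 bases upstream of 3 of them are shown, because EGR1, EGR2 and VGF were all highest in optimized IFNL3 libraries while the motifs searched differed among them. Capitals mark a CArG box, the element bound by serum response factor, in EGR1, and a cAMP response element in VGF.
EGR1: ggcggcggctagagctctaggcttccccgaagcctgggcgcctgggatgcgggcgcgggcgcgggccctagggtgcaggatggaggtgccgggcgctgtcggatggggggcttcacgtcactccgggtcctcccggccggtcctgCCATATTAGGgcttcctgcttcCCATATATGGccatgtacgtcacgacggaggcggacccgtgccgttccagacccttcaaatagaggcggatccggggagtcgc
EGR2: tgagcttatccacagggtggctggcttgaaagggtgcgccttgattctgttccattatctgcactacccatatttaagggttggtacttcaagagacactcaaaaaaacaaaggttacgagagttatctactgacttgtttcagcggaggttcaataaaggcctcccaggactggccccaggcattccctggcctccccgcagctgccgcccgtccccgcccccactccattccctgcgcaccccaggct
VGF: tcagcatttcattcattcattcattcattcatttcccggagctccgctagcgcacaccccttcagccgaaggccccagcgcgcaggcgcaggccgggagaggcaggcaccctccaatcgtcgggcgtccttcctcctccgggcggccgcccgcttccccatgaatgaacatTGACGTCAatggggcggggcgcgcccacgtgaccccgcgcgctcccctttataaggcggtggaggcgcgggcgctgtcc
The EGR1 sequence is chr5:138465229-138465478 on the plus strand, that of EGR2 is chr10:62819168-62819417 on the minus strand, and that of VGF is chr7:101165570-101165819 on the minus strand. Both strands were searched for CArG boxes, the cAMP response element TGACGTCA, the AP-1 motif TGACTCA or TGAGTCA, the EGR motif GCGTGGGCG, the ETS motif CCGGAAGT, the STAT motif TTCNNNGAA and the interferon motif GAAANNGAAA. EGR1 held 2 CArG boxes, 105 to 96 and 83 to 74 bases before the start, and a STAT motif 228 to 220 bases before it. Of 27305 sequences of this length, 1.14% held a CArG box and 6.78% the STAT motif. VGF held the cAMP response element 79 to 72 bases before the start, as did 1.77% of all sequences. EGR2, DUSP6, SPRY4 and CCL20 held none of these letters in the window. Any other start of the same gene was not searched, so this does not say that such a gene lacks the motifs. The shares for the other motifs over all sequences were 4.16% for AP-1, 0.71% for EGR, 3.64% for ETS and 3.07% for the interferon motif. A match describes letters and not a bound site.

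**Figure D1:**
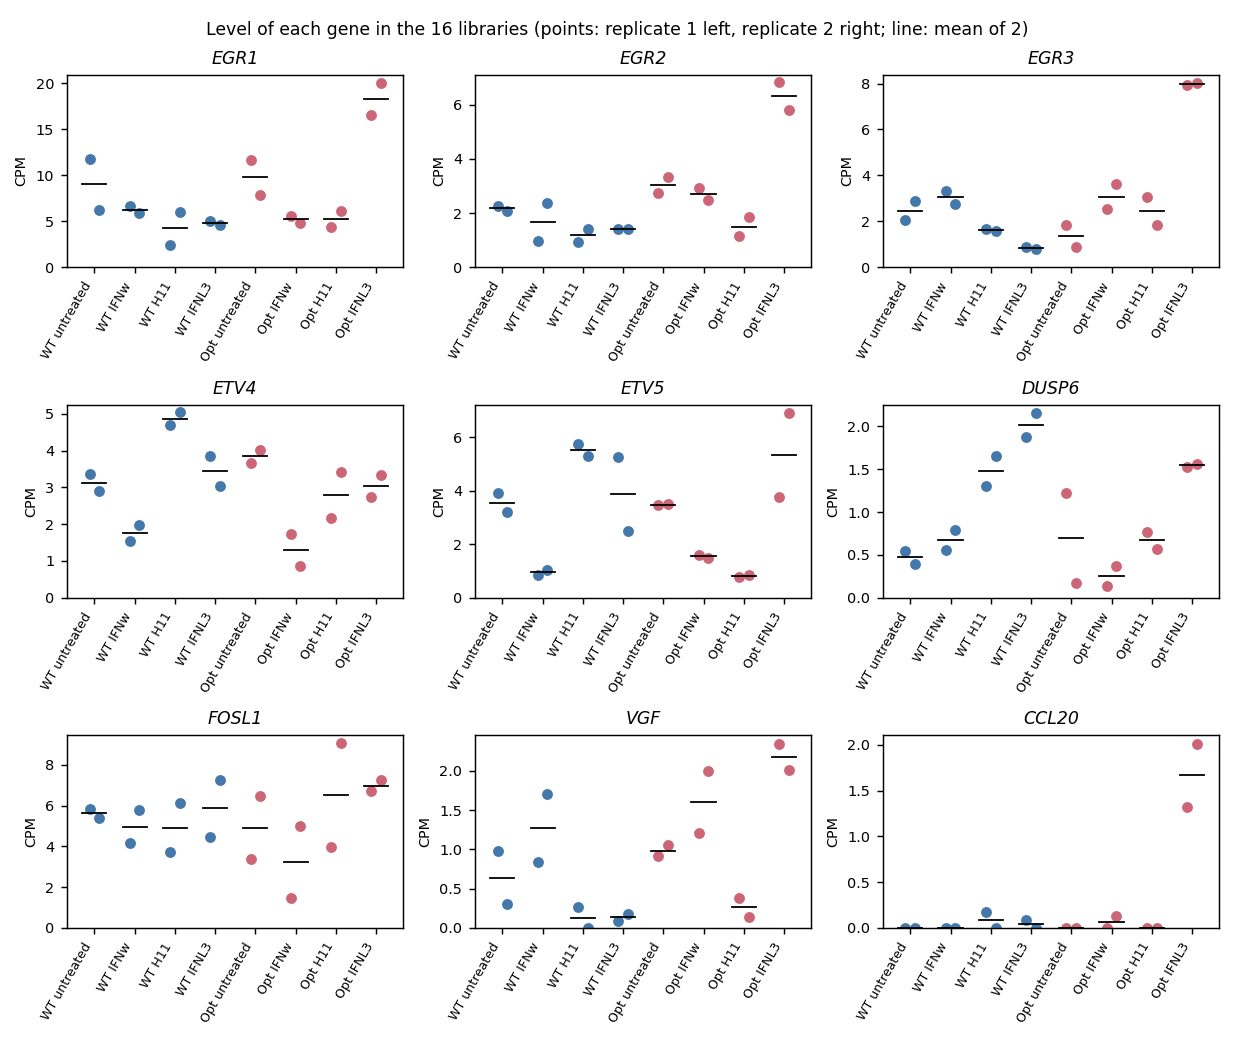
Level of each of the 9 genes with reads (y axis, CPM, linear from 0) in the 8 groups (x axis); points are libraries, with replicate 1 on the left, and lines are group means. EGR1, EGR2, EGR3, VGF and CCL20 have both optimized IFNL3 libraries above the other 14, whereas ETV4 is highest in wild-type H11 and DUSP6 in wild-type IFNL3. The genes were selected on the optimized IFNL3 libraries.

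The 10 genes did not move as a block. In optimized cells given IFNL3, 6 genes had their highest group mean (EGR1, EGR2, EGR3, FOSL1, VGF and CCL20), and in all of these but FOSL1 both libraries lay above the other 14. The genes were selected on the optimized IFNL3 libraries, so that choice partly sets these counts. The share of all genes with the same order was not computed. ETV4, ETV5 and DUSP6 followed other patterns, with low ETV4 and ETV5 under IFNw and high DUSP6 in wild-type cells given a type III ligand. The difference between genotypes that passed the test was that of ETV5 with H11.

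Genes past an adjusted p of 0.05 (edgeR's quasi-likelihood test, Benjamini-Hochberg adjustment over all 12704 genes) were counted beside the share of all genes past it in the same comparison. Against untreated wild-type cells, IFNw changed 1 of the 9 genes (ETV5) and 31.4% of all genes. H11 changed 2 (EGR1 and DUSP6) against 38.8%, and IFNL3 changed 2 (EGR3 and DUSP6) against 39.7%. In optimized cells IFNw changed 1 (ETV4) against 33.4%, and H11 changed 1 (ETV5) against 32.4%. Between genotypes, H11-treated cells differed in 1 of the 9 (ETV5) against 51.7%, and the response to H11 differed in 1 (ETV5) against 36.9%. Wild-type cells with IFNw differed from those with IFNL3 in 5 of the 9 (EGR3, VGF, ETV4, ETV5 and DUSP6) against 53.1%, which is close to the share of all genes. In the other comparisons the share of the 9 was smaller than that of all genes. CCL20 is among the 9 but had only 0 to 2 reads in each group compared here. It could hardly be called, which lowers each share of the 9. The 9 genes held 35 to 1135 reads each over the 16 libraries, and the part of these low counts in the shares was not tested. Median log2 fold changes of the 9 genes lay between -0.53 and 0.29 in these 8 comparisons, and those of all genes between -0.06 and -0.01.

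In 5 further comparisons edgeR called 0 of the 9 genes and 0% of all genes, and DESeq2 also called 0. They were optimized against wild-type cells untreated (705 of 12704 genes and 0 of the 9 at an unadjusted p under 0.05) and with IFNw (440 genes and 0 of the 9), and the difference between the genotypes' IFNw responses (633 genes and 0 of the 9). The others were H11 against IFNL3 in wild-type cells (158 genes and 0 of the 9) and H11 against IFNw in optimized cells (279 genes and 2 of the 9, VGF and ETV4). For the untreated genotypes and the IFNw response, the count over all genes depended on single libraries. Without replicate 1 of untreated optimized cells, 1294 genes differed between untreated genotypes and 766 in the IFNw response, and leaving out replicate 1 of the untreated wild-type libraries gave 1 gene in each. None of them was among the 9, and the other 3 comparisons stayed at 0 genes whichever library was left out.

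**Figure D2:**
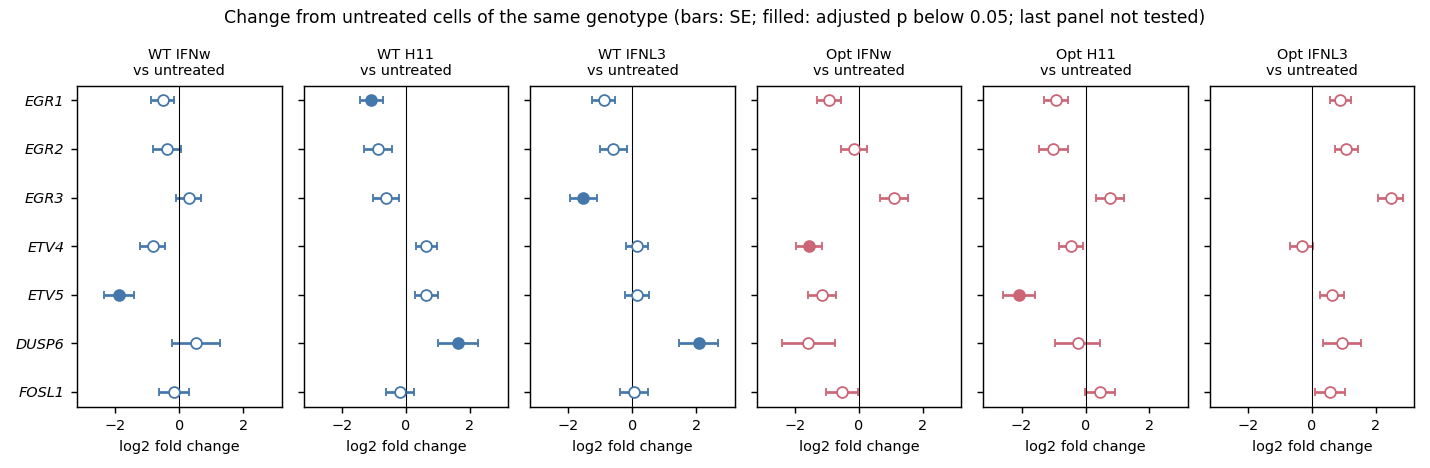
Log2 fold change ± SE (x axis) of 7 of the genes against untreated cells of the same genotype, with a panel for each ligand and genotype; filled points passed an adjusted p of 0.05 and the panel of optimized IFNL3 was not tested. Filled points are ETV5 with IFNw, EGR1 and DUSP6 with H11, and EGR3 and DUSP6 with IFNL3 in wild-type cells, and ETV4 with IFNw and ETV5 with H11 in optimized cells.

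EGR1 encodes a zinc-finger transcription factor that many growth signals induce within minutes. In wild-type cells its level was 11.8 and 6.28 CPM untreated, 6.68 and 5.91 CPM with IFNw, 2.43 and 6.04 CPM with H11, and 5.09 and 4.57 CPM with IFNL3. In optimized cells it was 11.7 and 7.88 CPM untreated, 5.62 and 4.86 CPM with IFNw, 4.36 and 6.11 CPM with H11, and 16.6 and 20.1 CPM with IFNL3. Optimized IFNL3 cells stood above every other library, and all the other ligand-treated groups had means below both untreated groups. Neighbours in the order of means overlapped, apart from optimized IFNL3 above untreated optimized cells and wild-type IFNw above optimized IFNw. The optimized IFNL3 mean of 18.3 ± 2.46 CPM compared with 9.79 ± 2.71 CPM in untreated optimized cells, a log2 difference of 0.88 ± 0.33 (SE). Against IFNL3 in wild-type cells (4.83 ± 0.37 CPM) the log2 difference was 1.92 ± 0.34.

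EGR1 fell by 1.08 ± 0.36 on the log2 scale with H11 in wild-type cells (adjusted p = 0.024). The untreated wild-type libraries held 109 and 63 EGR1 reads and the H11 libraries 28 and 73. In CPM the groups were narrowly apart, the lower untreated library at 6.28 and the higher H11 library at 6.04. Without replicate 1 of the untreated libraries the log2 change was -0.56 (adjusted p = 0.335), and without replicate 1 of the H11 libraries it was -0.58 (0.249), within adjusted p of 0.00088 to 0.335 over 10 alternatives. The EGR1 values for IFNL3 in wild-type cells (-0.90 ± 0.35, adjusted p = 0.053), IFNw in optimized cells (-0.93 ± 0.37, 0.063) and H11 in optimized cells (-0.93 ± 0.37, 0.064) missed the threshold. They passed it in 5 of 10, 5 of 11 and 4 of 11 alternatives, and all were negative there. IFNw in wild-type cells gave -0.52 ± 0.36.

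EGR2 encodes a related factor, known for its part in Schwann cell myelination and in lymphocytes. Wild-type cells had 2.28 and 2.09 CPM untreated, 0.97 and 2.36 CPM with IFNw, 0.96 and 1.41 CPM with H11, and 1.43 and 1.44 CPM with IFNL3. Optimized cells had 2.75 and 3.33 CPM untreated, 2.94 and 2.49 CPM with IFNw, 1.15 and 1.85 CPM with H11, and 6.82 and 5.80 CPM with IFNL3. Only the optimized IFNL3 libraries exceeded 3.33 CPM, and of the other groups optimized IFNw stood apart from untreated wild-type cells and wild-type IFNL3 from wild-type H11 in the order of means. These levels rest on 7 to 67 reads a library. The described log2 difference of optimized IFNL3 was 1.07 ± 0.37 from untreated optimized cells, 2.07 ± 0.41 from optimized H11 and 2.13 ± 0.38 from wild-type IFNL3. No tested comparison called EGR2. H11 gave -0.88 ± 0.43 in wild-type cells (adjusted p = 0.116), and in optimized cells its adjusted p was 0.093.

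EGR3 encodes another EGR factor, which EGR1-inducing signals also raise. Its wild-type levels were 2.06 and 2.89 CPM untreated, 3.34 and 2.76 CPM with IFNw, 1.65 and 1.57 CPM with H11, and 0.89 and 0.81 CPM with IFNL3. Its optimized levels were 1.83 and 0.88 CPM untreated, 2.54 and 3.61 CPM with IFNw, 3.08 and 1.85 CPM with H11, and 7.94 and 8.03 CPM with IFNL3. The IFNL3 group was thus the lowest of all 8 in wild-type cells and the highest in optimized cells, with 19 reads in the former and 150 in the latter. The described log2 difference between these groups was 3.21 ± 0.40, and that of optimized IFNL3 from untreated optimized cells was 2.46 ± 0.39. The latter was 3.17 without replicate 1 of the untreated optimized libraries. Optimized IFNL3 exceeded optimized H11 by 1.68 ± 0.36 and exceeded optimized IFNw by 1.37 ± 0.35.

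EGR3 fell by 1.53 ± 0.43 on the log2 scale with IFNL3 in wild-type cells (adjusted p = 0.0099), and the groups did not overlap. The call was lost without replicate 2 of the untreated libraries (-1.26, adjusted p = 0.090) and without replicate 2 of the IFNL3 libraries (-1.46, 0.061), the range over 10 alternatives being 0.0074 to 0.090. EGR3 was higher with IFNw than with IFNL3 in wild-type cells by 1.82 ± 0.44 (adjusted p = 0.0020), and this call held in all 10 alternatives (1.72 to 1.97). In optimized cells IFNw gave 1.09 ± 0.42 (adjusted p = 0.057) and H11 0.78 ± 0.44 (0.19), and neither passed. Without replicate 1 of the untreated optimized libraries the IFNw value was 1.80 and passed (0.030, the lowest over 11 alternatives, which reached 0.263), and the H11 value was 1.49 (0.079, the lowest over 11, which reached 0.659). The H11 response of EGR3 in optimized minus wild-type cells was 1.40 ± 0.59 (adjusted p = 0.072). It passed without replicate 1 of the untreated optimized libraries (2.11, 0.030) and without replicate 2 of optimized H11 (1.72, 0.046), the range over 14 alternatives being 0.030 to 0.284.

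ETV4 encodes an ETS-domain factor of the PEA3 family, a common readout of FGF and ERK signalling. Wild-type cells had 3.36 and 2.89 CPM untreated, 1.53 and 1.97 CPM with IFNw, 4.69 and 5.04 CPM with H11, and 3.84 and 3.05 CPM with IFNL3. Optimized cells had 3.66 and 4.03 CPM untreated, 1.74 and 0.87 CPM with IFNw, 2.18 and 3.41 CPM with H11, and 2.75 and 3.35 CPM with IFNL3. The 4 IFNw libraries were the lowest and the wild-type H11 libraries the highest, while optimized IFNL3 overlapped untreated wild-type cells. ETV4 fell by 1.55 ± 0.41 on the log2 scale with IFNw in optimized cells (adjusted p = 0.0071). The call was lost when only the compared groups were fitted (-1.54, adjusted p = 0.059) and without replicate 2 of optimized IFNw (-1.09, 0.105), the range over 11 alternatives being 0.0041 to 0.105. In wild-type cells the value for IFNw was -0.83 ± 0.39 (adjusted p = 0.119). With H11, optimized cells differed from wild-type cells by -0.81 ± 0.35 (adjusted p = 0.059), and by -1.12 (0.015) once the length trend was fitted out, the range over 10 alternatives being 0.015 to 0.361. ETV4 was lower with IFNw than with IFNL3 in wild-type cells by a log2 value of -0.97 ± 0.38 (adjusted p = 0.041), a call lost in 7 of 10 alternatives. Among these were all 4 that leave out a replicate of either group (adjusted p = 0.052 to 0.209, against 0.011 to 0.209 over the 10).

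ETV5, the close relative of ETV4, was the gene of the 9 that differed between genotypes past the threshold. With H11 it stood at 5.74 and 5.29 CPM where the receptors were wild-type and at 0.77 and 0.85 CPM where they were optimized, from 130 and 12 reads. With IFNw it was low in both genotypes, with wild-type libraries at 0.83 and 1.05 CPM and optimized ones at 1.61 and 1.49 CPM. Untreated libraries lay between, the wild-type ones at 3.90 and 3.19 CPM and the optimized ones at 3.46 and 3.50 CPM. IFNL3 gave wild-type levels of 5.27 and 2.51 CPM and optimized levels of 3.77 and 6.91 CPM, so its replicates spread widely and overlapped each other and untreated wild-type cells. All 6 libraries of IFNw and optimized H11 lay below every other library.

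With H11, ETV5 was 6.72-fold lower in optimized than in wild-type cells (log2 -2.75 ± 0.47, adjusted p = 0.000101). Over 10 alternatives the value was -2.81 to -2.66 and passed in each, at -2.74 in DESeq2 and -2.68 with the length trend fitted out. ETV5 fell by 2.09 ± 0.50 with H11 in optimized cells (adjusted p = 0.0042), a call that held in all 11 alternatives (-2.12 to -1.97). In wild-type cells H11 gave 0.64 ± 0.36 (adjusted p = 0.171). The difference between these responses was -2.72 ± 0.62 (adjusted p = 0.0024) and held in all 14 alternatives. ETV5 fell by 1.89 ± 0.48 with IFNw in wild-type cells (adjusted p = 0.0059). That call was lost without replicate 1 of wild-type IFNw (-1.69, adjusted p = 0.062, range over 11 alternatives 0.00083 to 0.062). IFNw in optimized cells gave -1.16 ± 0.45 (adjusted p = 0.055). Wild-type ETV5 was lower with IFNw than with IFNL3 by a log2 value of -2.03 ± 0.47 (adjusted p = 0.0015), called in all 10 alternatives (-2.46 to -1.40).

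**Figure D3:**
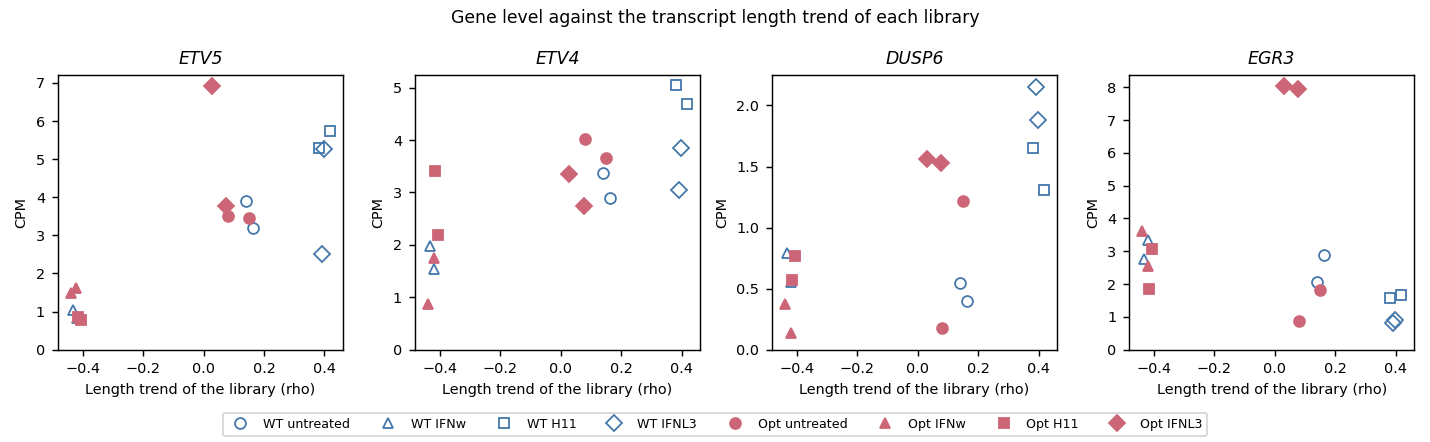
Level (y axis, CPM) of ETV5, ETV4, DUSP6 and EGR3 against each library's trend with transcript length (x axis, Spearman's rho), 16 points coloured by genotype. ETV5 is at most 1.61 CPM in the 6 libraries at rho -0.44 to -0.41 and at least 2.51 CPM elsewhere, while EGR3 has its 2 highest points near the middle of the axis.

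The libraries with low ETV5 were also the 6 with the negative trend against transcript length. The longest annotated transcripts of ETV5 (4111 nt), DUSP6 (4400 nt) and EGR3 (4336 nt) are longer than those of ETV4 (2429 nt) and FOSL1 (1669 nt). With the trend fitted out, the ETV5 log2 values were -1.82 for IFNw in wild-type cells, -2.05 for H11 in optimized cells and -2.69 for the difference between the genotypes' H11 responses, and each passed. The ETV4 response difference moved from -1.10 ± 0.49 (adjusted p = 0.091) to -1.44 (0.037), within 0.037 to 0.295 over 14 alternatives. The positions counted on each transcript were not used here.

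FOSL1 encodes a FOS-family partner of JUN in AP-1. Wild-type cells had 5.86 and 5.38 CPM untreated, 4.17 and 5.78 CPM with IFNw, 3.74 and 6.12 CPM with H11, and 4.47 and 7.27 CPM with IFNL3. Optimized cells had 3.36 and 6.48 CPM untreated, 1.47 and 4.98 CPM with IFNw, 3.97 and 9.09 CPM with H11, and 6.72 and 7.25 CPM with IFNL3. Every group overlapped the next in the order of means, which ran from 3.23 CPM in optimized IFNw to 6.98 CPM in optimized IFNL3, and the replicates of optimized H11 lay farthest apart. No tested comparison called FOSL1, and its log2 changes against untreated cells of the same genotype lay between -0.53 ± 0.51 and 0.46 ± 0.48. Optimized IFNL3 differed from untreated optimized cells by a described 0.56 ± 0.46.

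DUSP6 encodes a phosphatase that inactivates ERK and is itself an ERK target. Wild-type cells had 0.54 and 0.40 CPM untreated, 0.56 and 0.79 CPM with IFNw, 1.30 and 1.65 CPM with H11, and 1.88 and 2.15 CPM with IFNL3. Optimized cells had 1.22 and 0.18 CPM untreated, 0.13 and 0.37 CPM with IFNw, 0.77 and 0.57 CPM with H11, and 1.53 and 1.56 CPM with IFNL3. Wild-type cells given either type III ligand and optimized IFNL3 cells were above all other libraries, on 14 to 24 reads each. In wild-type cells DUSP6 rose by 2.07 ± 0.61 on the log2 scale with IFNL3 (adjusted p = 0.012). That call was lost without replicate 2 of untreated cells (1.87, adjusted p = 0.086) and without replicate 2 of IFNL3 (1.97, 0.055), the range over 10 alternatives being 0.010 to 0.086. DUSP6 rose by 1.63 ± 0.62 with H11 (adjusted p = 0.046), but this call was lost in 7 of 10 alternatives, including DESeq2 (0.106) and each that leaves out a replicate of either group (log2 1.43 to 1.86, adjusted p = 0.080 to 0.198), the range over the 10 being 0.043 to 0.198. It was lower with IFNw than with IFNL3 in wild-type cells by a log2 value of -1.56 ± 0.60 (adjusted p = 0.037), again lost in 7 of 10, with each replicate left out among them (-1.81 to -1.30, adjusted p = 0.070 to 0.180).

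No difference between genotypes was called for DUSP6. Its untreated optimized libraries held 12 reads and 1 read, and the values that use them turn on that pair. The described difference of optimized IFNL3 from untreated optimized cells was 0.94 ± 0.60, and it was 3.04 without replicate 1 and 0.33 without replicate 2 of the untreated libraries. IFNw in optimized cells gave a DUSP6 value of -1.58 ± 0.83 (adjusted p = 0.16), which was -2.19 without replicate 2 of the untreated libraries (0.045) and turned to 0.52 without replicate 1 (0.809), these being the lowest and highest adjusted p over 11 alternatives. The H11 response in optimized minus wild-type cells was -1.87 ± 0.95 (adjusted p = 0.133), which was -2.48 without replicate 2 of the untreated optimized libraries (0.034) and turned to 0.23 without replicate 1 (0.905), again the lowest and highest adjusted p over 14 alternatives. H11-treated cells differed between genotypes by -1.12 ± 0.62 (adjusted p = 0.137).

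SPRY4, a Sprouty inhibitor of receptor tyrosine kinase signalling, had 0 reads in all 16 libraries. A count of 0 allows up to 3 reads over a group, or 0.127 CPM in wild-type H11 to 0.203 CPM in wild-type IFNw. SPRY4 was thus not detected, and how well its target counts the gene was not tested. Its relative SPRY2 was counted, with group means from 7.16 CPM in wild-type IFNL3 to 14.7 CPM in optimized IFNL3. SPRY2 fell by 0.79 ± 0.29 on the log2 scale with IFNw in optimized cells (adjusted p = 0.047). This call lies near the threshold, and SPRY2 was not followed through the alternatives.

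VGF encodes a secreted neuropeptide precursor that nerve growth factor induces. Wild-type cells had 0.98 and 0.30 CPM untreated, 0.83 and 1.71 CPM with IFNw, 0.26 and 0 CPM with H11, and 0.09 and 0.18 CPM with IFNL3. Optimized cells had 0.92 and 1.05 CPM untreated, 1.20 and 1.99 CPM with IFNw, 0.38 and 0.14 CPM with H11, and 2.34 and 2.01 CPM with IFNL3. Optimized IFNL3 was the highest group, just above an optimized IFNw library at 1.99 CPM, whereas the other type III groups were the lowest. The described ratio of optimized to wild-type IFNL3 was 16.2 (95% counting interval 5.18 to 82.0, 41 against 3 reads). In wild-type cells VGF was higher with IFNw than with IFNL3, at 19 against 3 reads, a ratio of 9.56 (2.81 to 50.4) with adjusted p = 0.0076. The call was lost without replicate 1 of IFNL3 (log2 2.74, adjusted p = 0.057) and without replicate 2 of IFNw (2.54, 0.090), the range over 10 alternatives being 0.0047 to 0.090. Against untreated wild-type cells VGF was 4.90-fold lower with H11 (1.32 to 27.1) and 4.64-fold lower with IFNL3 (1.25 to 25.6), 3 against 12 reads each, and neither passed (adjusted p = 0.086 and 0.097). The H11 value passed without replicate 1 of H11 (0.033, the lowest over 10 alternatives, which reached 0.543), which leaves a library with 0 reads.

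CCL20 encodes a chemokine that draws cells bearing CCR6, and inflammatory and growth signals induce it. It had 0 reads in untreated cells of both genotypes, wild-type IFNw and optimized H11. It had 2 reads in wild-type H11, 1 in wild-type IFNL3 and 1 in optimized IFNw. The optimized IFNL3 libraries held 13 and 18 reads, or 1.32 and 2.01 CPM, and were the only ones above 0.17 CPM. As a description, the level was at least 8.55-fold higher than in untreated optimized cells and at least 8.16-fold higher than in optimized H11, with the 31 reads taken as counted and the floor of 3 reads over a group. With the counting error of both groups, the lower 95% limits were 6.54-fold and 6.25-fold. Against wild-type IFNL3 the ratio was 36.8 (6.14 to 1502), and against optimized IFNw it was 25.6 (4.26 to 1042). These intervals and floors cover counting error only, since reads were not collapsed by molecule. No tested comparison called CCL20, for which the groups involved held 0 to 2 reads.

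Other genes of the pathway were counted from lists of known members. Neither these counts nor the genes named here and below were followed through the alternatives, the fit with the length trend removed among them. Of 22 tested genes of the RAS-ERK cascade, IFNw raised 2 and lowered 10 in wild-type cells (54.5% called, against 31.4% of all genes), whereas 8 rose and 2 fell with H11 there (45.5% against 38.8%). In optimized cells each of IFNw and H11 raised 4 and lowered 8 (54.5%, against 33.4% and 32.4%). With H11, 2 were higher and 10 lower in optimized than in wild-type cells (median log2 -0.41 over the list and -0.05 over all genes), with 54.5% called against 51.7% of all genes. SOS1, the exchange factor that loads RAS, fell by 1.20 ± 0.17 with IFNw in wild-type cells and was lower in optimized cells with H11 (-1.67 ± 0.17). PTPN11, the phosphatase SHP2 that aids RAS activation, fell by 0.96 ± 0.16 with IFNw in wild-type cells and differed by -1.41 ± 0.16 between genotypes with H11. KSR1, a scaffold for RAF, MEK and ERK, rose by 0.94 ± 0.29 with H11 in wild-type cells and differed between genotypes by -2.20 ± 0.34. The groups in which more of the cascade fell than rose were those with the negative length trend, and wild-type H11 had the positive trend. The part of this trend in the directions was not tested.

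Among 16 tested ERK feedback inhibitors, IFNw raised 4 and lowered 4 in wild-type cells (8 of 16 called, against 31.4% of all genes), and H11 and IFNL3 each raised 3 and lowered 1 (4 of 16, against 38.8% and 39.7%). In optimized cells 3 rose and 4 fell with IFNw (43.8% against 33.4%), and 3 rose and 3 fell with H11 (37.5% against 32.4%). SPRED2, which inhibits RAF activation, fell by 1.27 ± 0.18 with IFNw in wild-type cells, by 1.11 ± 0.18 with IFNw in optimized cells and by 1.21 ± 0.18 with H11 in optimized cells. DUSP2, a nuclear ERK phosphatase, rose by 1.08 ± 0.21 with IFNw in wild-type cells and by 0.99 ± 0.21 with H11 in optimized cells. DUSP4 fell by 1.13 ± 0.32 and DUSP10 rose by 1.35 ± 0.43 with H11 in wild-type cells, so DUSP genes did not share a direction there.

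Of 21 tested immediate early genes, 6 rose and 4 fell with H11 in wild-type cells, and 6 rose and 4 fell with IFNL3 there (47.6% called in each, against 38.8% and 39.7% of all genes). The matrix-associated gene CYR61 rose by 3.47 ± 0.15 with H11 and 3.55 ± 0.15 with IFNL3 in wild-type cells and by 0.49 ± 0.15 with H11 in optimized cells. ATF3, a stress-induced factor, fell by 2.12 ± 0.38 with H11 in wild-type cells and by 1.18 ± 0.38 in optimized cells. IER3 rose by 1.45 ± 0.21 with IFNw in wild-type cells and by 1.35 ± 0.22 with H11 in optimized cells. NAB2, a corepressor that binds EGR proteins, rose by 0.59 ± 0.16 with IFNw in wild-type cells and by 0.78 ± 0.16 with H11 in optimized cells. Of 15 tested later ERK targets, IFNw raised 2 and lowered 1 in wild-type cells (20.0% against 31.4%), and H11 raised 4 and lowered 4 (53.3% against 38.8%). Of 11 tested growth factor receptors, 2 to 4 passed in each of the 5 comparisons with untreated cells, and those that passed fell. These shares of 18.2% to 36.4% were below that of all genes in each comparison. IGF1R, the insulin-like growth factor receptor, fell by 0.84 ± 0.15 with IFNw in wild-type cells and by 1.04 ± 0.15 with H11 in optimized cells. Of 7 ligand genes tested, 2 rose and 3 fell with H11 in wild-type cells, among them FGF2 (1.11 ± 0.20) and VEGFA (-1.20 ± 0.17), or 71.4% called against 38.8%. Of 10 serum response and ternary complex factor genes, 3 rose and 1 fell with H11 in wild-type cells (40.0% against 38.8%), and 1 rose and 2 fell with H11 in optimized cells (30.0% against 32.4%). Of 10 NF-kappaB targets tested, 4 passed with H11 in wild-type cells and rose, including CCL2 (1.39 ± 0.32), and 1 rose and 1 fell with H11 in optimized cells. That is 40.0% against 38.8% of all genes and 20.0% against 32.4%.

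**Figure D4:**
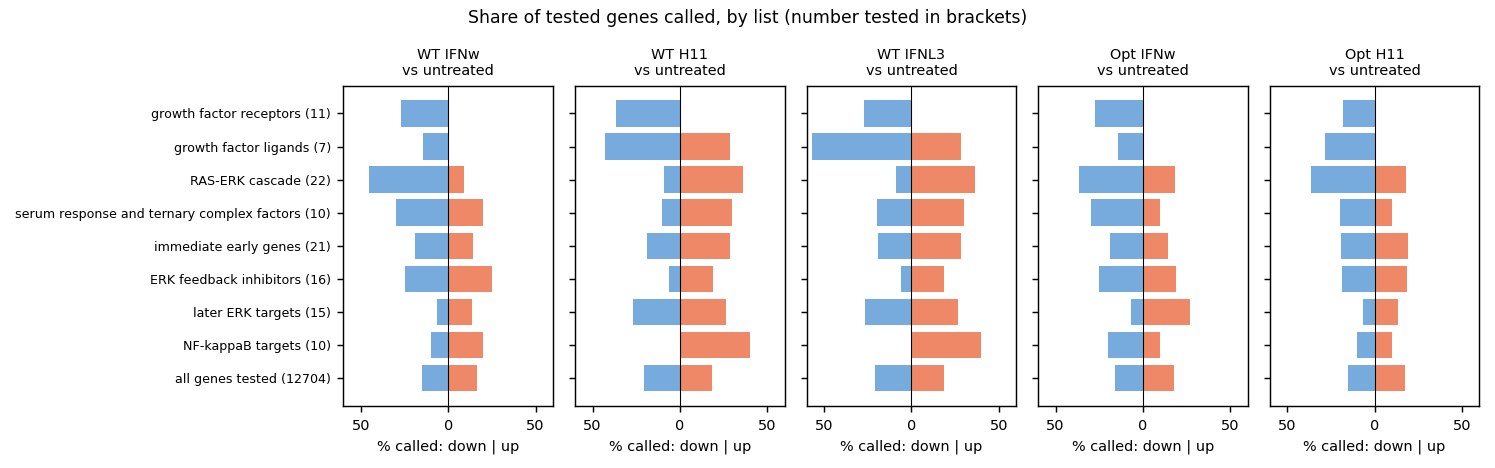
Percent of the tested genes of each list that passed an adjusted p of 0.05, with rises to the right and falls to the left of 0 and the number tested in brackets, for 5 comparisons. The RAS-ERK cascade has more falls than rises in IFNw-treated cells and optimized H11, and more rises than falls with H11 in wild-type cells. The length trend, which differs between these groups, is not fitted out.

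As a description across the 16 libraries, Pearson's r of log2 CPM was 0.81 for EGR1 with EGR2, 0.55 for EGR1 with EGR3, 0.66 for EGR3 with VGF, 0.72 for EGR2 with VGF and 0.68 for ETV4 with ETV5. DUSP6 was nearly unrelated to EGR1 (r = 0.09). Of 9878 genes at a mean of 5 CPM or more, those most like EGR1 were SSBP3 and AGGF1 (r = 0.83 each), RILPL1 and LITAF (0.81 each) and TFEB (0.78). Those most like DUSP6 were PRCC (0.92), INA (0.91), CCNYL1 and SOX12 (0.90 each) and NAT10 (0.89). The optimized IFNL3 libraries on which the genes were selected are among the 16, so a shared high level of the EGR genes and VGF there is built into these values. The points also share libraries, depth and the length trend, and the values describe 16 libraries in 8 groups.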

How the data were processed

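RNA was measured in 16 libraries of HEK293 cells (8 groups of 2). The authors deposited a table of whole-number read counts per gene target for each library, not normalized, per the file headers. Per the submitters' processing notes, reads were placed on hg19. The aligner and counter were not given in the sources used here, nor were the use of strand and the amplicon positions. Of 20812 targets, 10 spike-ins with at most 1 read were left out. CPM are counts per TMM-scaled library total, computed here from those counts. Totals were 5331203 to 9822088 reads.

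The test was edgeR's quasi-likelihood test (edgeR 4.0.16, R 4.3.3) with TMM factors, after filterByExpr by group, with all 16 libraries in 1 fit, a coefficient per group, and Benjamini-Hochberg adjustment over the 12704 genes left (threshold 0.05). The code was tested on simulated data. Alternatives were DESeq2 1.42.0, its size factors, no filter, a replicate block, an offset for transcript length (GENCODE, 11490 genes with a length), fewer groups in the fit, and each library left out. Ratios on 1 to 3 reads have exact 95% intervals, and a count of 0 a floor of 3 reads.

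The 10 genes and the pathway lists were chosen with earlier results of these data known. All 10 genes are named, and from each list up to 4 genes with the highest mean and, per comparison, up to 3 called genes with the largest change at 5 CPM or more, of which examples are given. Replicates differed by more than sampling noise in every group (chi-square per degree of freedom 6.35 to 24.9). The 24.9 was that of untreated optimized cells, and the next highest was 9.61 in wild-type H11. Untreated optimized cells also had the lowest correlation between replicates (Pearson's r of log2 CPM 0.965). Their replicate 2 was the library with 5331203 reads. Every comparison with untreated optimized cells, and each difference between the genotypes' responses, uses this pair.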

Additional observations from a re-analysis of the deposited data

Results flagged for a closer look

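The response of ETV5 to H11 differed between genotypes by the test of that difference itself. Its log2 fold change against untreated cells was 0.64 ± 0.36 in wild-type cells and -2.09 ± 0.50 in optimized cells, so that the difference, optimized minus wild-type, was -2.72 ± 0.62 (edgeR's quasi-likelihood test, Benjamini-Hochberg adjusted p = 0.0024). It rests on 130 ETV5 reads over the 2 wild-type H11 libraries and 12 over the 2 optimized ones, and both optimized libraries lay below both wild-type libraries. Transcript length trend differed between these groups too (Spearman's rho 0.38 to 0.42 in wild-type against -0.42 to -0.41 in optimized H11), and with it fitted out the difference was -2.69 (adjusted p = 0.0036, against 0.00011 to 0.016 over 14 alternatives).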

How the results depend on the processing

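Counts of called genes among the 9 tested were recomputed under each alternative: 112 of the recomputed counts stayed within 1.5 times, 28 moved further and 5 fell to 0, and no direction of a called gene reversed. The 112 include all recomputed counts of the comparisons with 0 calls among the 9, each of which stayed at 0. Counts in comparisons with calls were therefore less stable than this total shows. DESeq2 called 1 gene in place of 2 with H11 in wild-type cells and 3 in place of 5 for wild-type IFNw against IFNL3. With IFNL3 in wild-type cells DESeq2, no low-count filter, the replicate block and the compared groups alone each called 3 in place of 2, EGR1 being added (adjusted p = 0.0062 to 0.048). With no low-count filter, 1 was called with H11 and 3 for IFNw against IFNL3 in wild-type cells, and 3 with IFNw and 2 with H11 in optimized cells, in place of 1 each. With the length offset, 1 was called with H11 in wild-type cells, 2 with IFNw in optimized cells, 2 between genotypes with H11 and 2 for the H11 response. DUSP6 then missed the threshold in wild-type cells with H11 (log2 1.62, adjusted p = 0.051) and for IFNw against IFNL3 (-1.44, 0.059). EGR1 was added with IFNw in optimized cells (-0.99, 0.049). Without the 4 wild-type type III libraries, 2 were called with IFNw and 2 with H11 in optimized cells. Fitting only the compared groups left 0 with IFNw in optimized cells, and over all genes 2068 in place of 4247 there and 2002 in place of 4116 with H11. Replicate numbers were shared by all groups, but the labels do not say that they mark a batch. Same-numbered libraries deviated together weakly, with r positive throughout (0.085 to 0.21 over 28 pairs of groups, 27 of them over 0.1). With the replicate block more genes were called over all genes in each comparison with calls. With IFNw in wild-type cells the count was 4596 in place of 3989. The replicate block gave 2 calls with IFNw and 2 with H11 in optimized cells, EGR1 being added in both (adjusted p = 0.047 and 0.049), as with IFNL3 in wild-type cells (0.039). Leaving out each library in turn gave 0 to 1 calls with IFNw, 0 to 1 with H11 and 0 to 2 with IFNL3 in wild-type cells, 0 to 3 with IFNw and 1 to 2 with H11 in optimized cells, 1 to 2 for the H11 response, and 2 to 3 for wild-type IFNw against IFNL3. Over all genes, 2657 in place of 3989 were called with IFNw in wild-type cells without replicate 2 of that group. Comparisons with 0 calls gained 50 genes between untreated genotypes, 15 in the IFNw response and 1 for wild-type H11 against IFNL3 with no low-count filter, none of them among the 9. DUSP6, VGF and CCL20, with 155, 122 and 35 reads over all libraries, are limited by depth.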

Other observations

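Several other targets of well-known growth-response genes were almost without reads, like SPRY4. JUN, the AP-1 partner of FOSL1, had 0 to 3 reads per group, and EGFR, the epidermal growth factor receptor, had 0 to 1. Both were singled out after their values were seen. How well these targets count their genes was not tested.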
